A study of Homo sapiens with 12 samples.

Results

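The effect of the PPARγ antagonist T0070907 given without agonist was measured in A375 cells by comparing 3 libraries of cells treated with T0070907 alone with the 3 vehicle libraries of the same experiments, chosen by treatment and paired by experiment number, together 6 of the 12 libraries in the series. A375 is a human metastatic melanoma line derived from skin, used here between passages 30 and 32 in DMEM with 10% FBS. T0070907 was applied at 2 µM for 24 h, and the vehicle was DMSO at a dilution of 1 in 10000. The remaining 6 libraries entered the same fit and the comparisons further below, and came from cells given 5 µM of the agonist rosiglitazone (RGZ) for 24 h, 3 without and 3 with 2 µM T0070907. A library stands for 1 treatment in 1 of 3 independent experiments (n = 3 per group) and combines the technical replicates made there, so the spread between libraries is that between experiments within one cell line. The vehicle libraries held 8687191, 8319455 and 8411073 counts in experiments 1, 2 and 3, and the T0070907 libraries held 8524144, 10822352 and 11375227. Levels are given below as CPM, read counts scaled to a common library size, in the order of experiments 1, 2 and 3, and a floor of 3 counts corresponded to between 0.258 and 0.357 CPM in these 6 libraries.

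PPARγ is a nuclear receptor that binds DNA as a heterodimer with a retinoid X receptor (RXR), at paired copies of a short half-site separated by a single base. Fatty acid derivatives and thiazolidinediones such as RGZ activate it, coactivators then replace a corepressor complex, and genes for fatty acid uptake, storage and oxidation are among its best known targets. T0070907 binds covalently in the ligand pocket and favours corepressor binding, so that it can lower receptor activity in cells without added agonist. Whether the changes described below pass through PPARγ was not tested.

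The melanoma identity of the libraries was checked on 10 melanocyte lineage markers. *SOX10*, a neural crest transcription factor and the marker with the highest CPM, had 299.9, 208 and 425 CPM with vehicle and 327, 246 and 429 CPM with T0070907. Of the pigment genes, *TYR* had 0 counts in all 6 libraries and *DCT* at most 1 count in any of them. *TYRP1* had between 2 and 13 counts, *PMEL* between 3 and 13 and *MLANA* between 0 and 6. *MITF*, *PAX3*, *S100B* and *EDNRB* were above the floor in each library. The summed level of the 10 markers was 403, 302 and 531 CPM with vehicle and 443, 350.1 and 567 CPM with T0070907. Of the markers of other cell types, the 6 keratinocyte markers had the highest sum, between 87.9 and 117 CPM and led by *KRT10*, with *KRT1* and *TP63* at 0. The 6 fibroblast markers (led by *PDGFRB*, none at 0 in all libraries) summed to 28.4, 55.1 and 26.0 CPM with vehicle and to 36.5, 61.0 and 31.9 CPM with T0070907, a higher sum in each experiment, and their part in the results was not tested. The 6 immune cell markers summed to between 42.3 and 80.2 CPM (led by *CD68*, with *CD3E* at 0), the 6 endothelial markers to 6.59, 6.78 and 8.83 CPM with vehicle and 6.70, 8.41 and 11.3 CPM with T0070907 (led by *KDR*) and the 6 adipocyte markers to between 3.47 and 5.24 CPM (led by *LIPE*, with *ADIPOQ* and *CIDEA* at 0).

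T0070907 alone lowered lipid genes, among them the lipid droplet coat gene *PLIN2* and several genes of mitochondrial fatty acid oxidation. It also lowered the interleukin genes *IL1A* and *IL1B* and the secreted trefoil factor *TFF2*. A smaller set rose, including the netrin receptor *UNC5C* and the acute phase gene *SERPINA3*. At an adjusted p under 0.05 in edgeR with experiment as a block, 123 of 13522 tested genes were called (0.91%), 91 of them lower (0.673%) and 32 higher (0.237%) with T0070907. Without the block a single gene, *TFF2*, was called (1 gene, 0.0074%, adjusted p = 0.042), and the common dispersion was 0.00333 with the block and 0.0193 without it. The changes were small: 69 of the 123 genes moved by less than 1.5-fold, 22 by more than 2-fold (17 lower, 5 higher), and the median size of a called change was 0.52 on the log2 scale. The values of vehicle and T0070907 libraries overlapped for 61 of the 123 genes, whose shift shows only within experiments, and lay apart for the other 62, as they did for 1037 of all 13522 tested genes (7.67%). Over all tested genes, 95% of the log2 fold changes lay between -0.41 and 0.45 with a median of 0.00. Being bulk RNA, the libraries do not tell a change in RNA per cell from a change in the share of cells that express a gene.

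A fit of only the 6 compared libraries with the block called 416 genes (163 higher, 253 lower), 120 of the 123 among them, and the fit of all libraries with no filter on low counts called 224. DESeq2 with the block called 112 genes, 100 of them among the 123, and limma-voom 109, with 107 among the 123. The count also moved with each library left out. It was 49 without vehicle library 1, 55 without vehicle library 2, 54 without vehicle library 3, 62 without T0070907 library 1, 55 without T0070907 library 2 and 30 without T0070907 library 3. Leaving out whole experiments gave 102 genes without experiment 1, 127 without experiment 2 and 10 without experiment 3. Of the 47 called genes that are named by rule below, *TFF2*, *IL1RL1*, *HR*, *TINAGL1* and *PLIN2* were called in each of these 9 settings; 16 of the 47 were called without T0070907 library 3 and 9 without experiment 3.

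**Figure D1:**
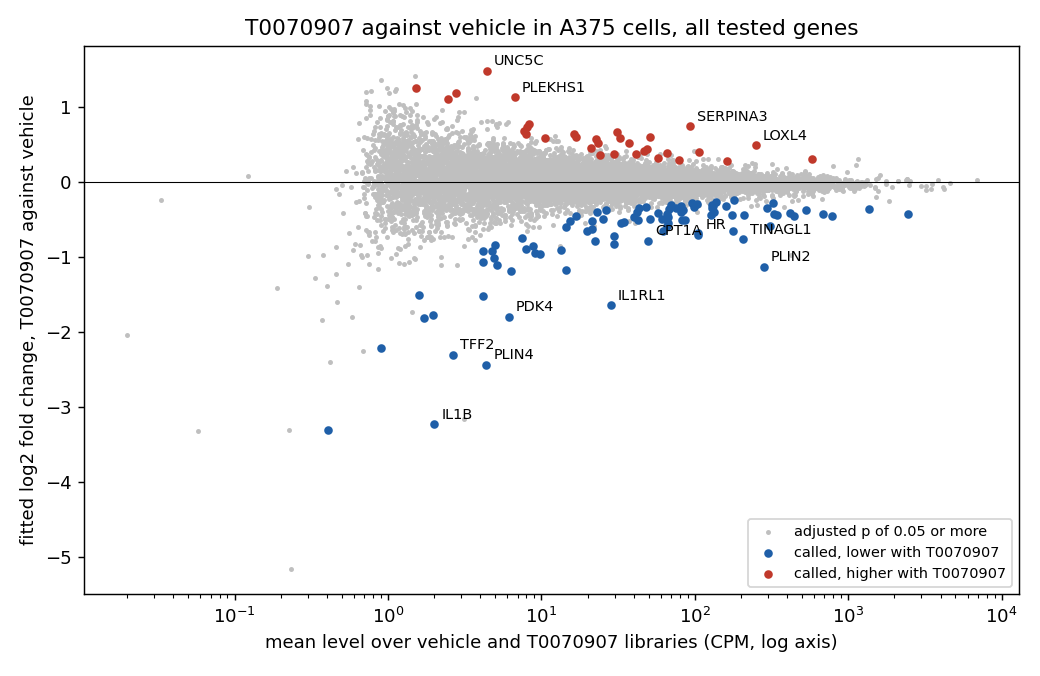
Log2 fold change of T0070907 against vehicle (vertical axis) against mean level in CPM (horizontal axis, log scale) for each of 13522 tested genes, with the 91 genes called lower and the 32 called higher in colour. Most called genes lie within 1 log2 unit of no change, and the larger shifts are at low to middle levels.

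The receptor genes themselves did not pass the test. *PPARG*, which encodes PPARγ, had 79.1, 90.0 and 77.4 CPM with vehicle and 82.9, 87.5 and 75.4 CPM with T0070907. These values interleave, and the fitted log2 fold change was -0.0048 (SE 0.06, adjusted p = 0.996). Among the related receptors the log2 fold changes were 0.32 (SE 0.12) for *PPARA*, 0.12 (SE 0.09) for *PPARD*, 0.13 (SE 0.08) for *RXRA* and -0.11 (SE 0.07) for *RXRB*, with adjusted p between 0.346 and 0.765. Of 24 tested receptors and coregulators, 1 was called, the corepressor complex subunit *TBL1X*, at 133, 158 and 136 CPM with vehicle and 113, 129.8 and 104 CPM with T0070907. The *TBL1X* groups did not overlap, and the gene fell by 0.30 on the log2 scale (SE 0.06, adjusted p = 0.0194), a call that was lost without any single one of the 6 libraries, at adjusted p from 0.0534 without T0070907 library 1 to 0.245 without T0070907 library 3. The median of the list was 0.04. The reference genes *YWHAZ*, an adaptor protein, and *B2M*, the light chain of MHC class I, had log2 fold changes of -0.11 and -0.07 (adjusted p = 0.462 and 0.766).

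On the list of PPAR target genes 46 were tested and 12 were called (26.1%), all 12 lower with T0070907. The median of the 46 was -0.18. Over all 13522 tested genes 0.91% were called and 0.673% were called lower, the background for this and each other list count. Nothing is read from the gap, since the lists were drawn up with earlier results of these data known. *PLIN2*, which coats lipid droplets and is induced by PPARs in many cell types, had 365, 389 and 405 CPM with vehicle and 172, 179 and 178 CPM with T0070907. Each vehicle library was above each T0070907 library by a wide margin, and *PLIN2* fell by 1.13 on the log2 scale (SE 0.13, adjusted p = 0.000192). *PLIN4*, another perilipin, had 5.00, 10.1 and 6.94 CPM with vehicle and 1.39, 1.70 and 1.03 CPM with T0070907. Its groups did not overlap either, and it fell by 2.44 (SE 0.41, adjusted p = 0.00491), although it was not called without T0070907 library 2 (adjusted p = 0.0699) or without T0070907 library 3 (adjusted p = 0.0678). *LPCAT3*, which places polyunsaturated chains into phospholipids and is also a target of the liver X receptors (LXR), had 68.2, 69.7 and 75.7 CPM with vehicle and 49.3, 50.8 and 51.1 CPM with T0070907, a fall by 0.50 (SE 0.07, adjusted p = 0.000871) without overlap. These 3 genes were the called members among 24 tested genes of lipid droplets and triglyceride turnover, whose median was -0.05. The number of called PPAR targets was 8 without T0070907 library 2, 6 without T0070907 library 3 and 4 without experiment 3, and *LPCAT3* was not called without that experiment (adjusted p = 0.141).

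Fatty acid oxidation held the largest group of called genes after the PPAR targets, with which it shared 6 of its 7: of 39 tested genes 7 were lower and 0 higher, and the median was -0.05. *CPT1A*, the carnitine palmitoyltransferase that admits long-chain fatty acids to mitochondria, had 60.5, 57.0 and 69.5 CPM with vehicle and 33.7, 39.6 and 35.5 CPM with T0070907. The lowest vehicle library was above the highest T0070907 library, and *CPT1A* fell by 0.78 (SE 0.09, adjusted p = 0.000192). Downstream of it in the mitochondrial matrix, the acyl-CoA dehydrogenase *ACADVL* fell by 0.45 (SE 0.06, adjusted p = 0.000725), the thiolase *ACAA2* by 0.71 (SE 0.09, adjusted p = 0.000568) and the dienoyl-CoA isomerase *ECH1* by 0.69 (SE 0.07, adjusted p = 0.000103). The levels of *ACADVL* were 464, 559 and 522 CPM with vehicle and 347, 412 and 367 CPM with T0070907. For *ECH1* they were 104, 144 and 141 CPM and 74.3, 79.0 and 87.1 CPM, and for *ACAA2* 36.4, 38.1 and 36.7 CPM and 22.2, 23.7 and 22.1 CPM. In none of these 3 genes did a T0070907 library reach the lowest vehicle library. *ETFA*, a subunit of the flavoprotein that takes up the electrons from acyl-CoA dehydrogenases, had 233, 262 and 228 CPM with vehicle and 171, 184 and 178 CPM with T0070907, again without overlap, and fell by 0.44 (SE 0.06, adjusted p = 0.000725).

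*PDK4*, the kinase that shuts off pyruvate dehydrogenase when fatty acids are burned, had 7.95, 8.92 and 11.6 CPM with vehicle and 2.31, 2.86 and 3.10 CPM with T0070907. Its groups were well apart, and it fell by 1.79 (SE 0.30, adjusted p = 0.00509). *SLC25A20*, the carnitine carrier of the inner mitochondrial membrane, was the remaining called gene of fatty acid oxidation and fell by 0.37 (adjusted p = 0.0493). Its call was lost in each of the 9 settings that leave out a library or experiment. Other enzymes of the pathway did not pass the test: *HADHA*, a subunit of the trifunctional protein, had a log2 fold change of -0.01 (adjusted p = 0.994) and *ACADM*, the medium-chain dehydrogenase, one of -0.04 (adjusted p = 0.939), both picked here as core enzymes after their values were seen. Without experiment 3, 1 of the 7 genes was called, *PDK4*, with adjusted p of 0.0918 for *CPT1A*, 0.0918 for *ACAA2*, 0.138 for *ACADVL*, 0.0691 for *ECH1* and 0.0691 for *ETFA*. *PDK4* itself was not called without T0070907 library 3 (adjusted p = 0.138).

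**Figure D2:**
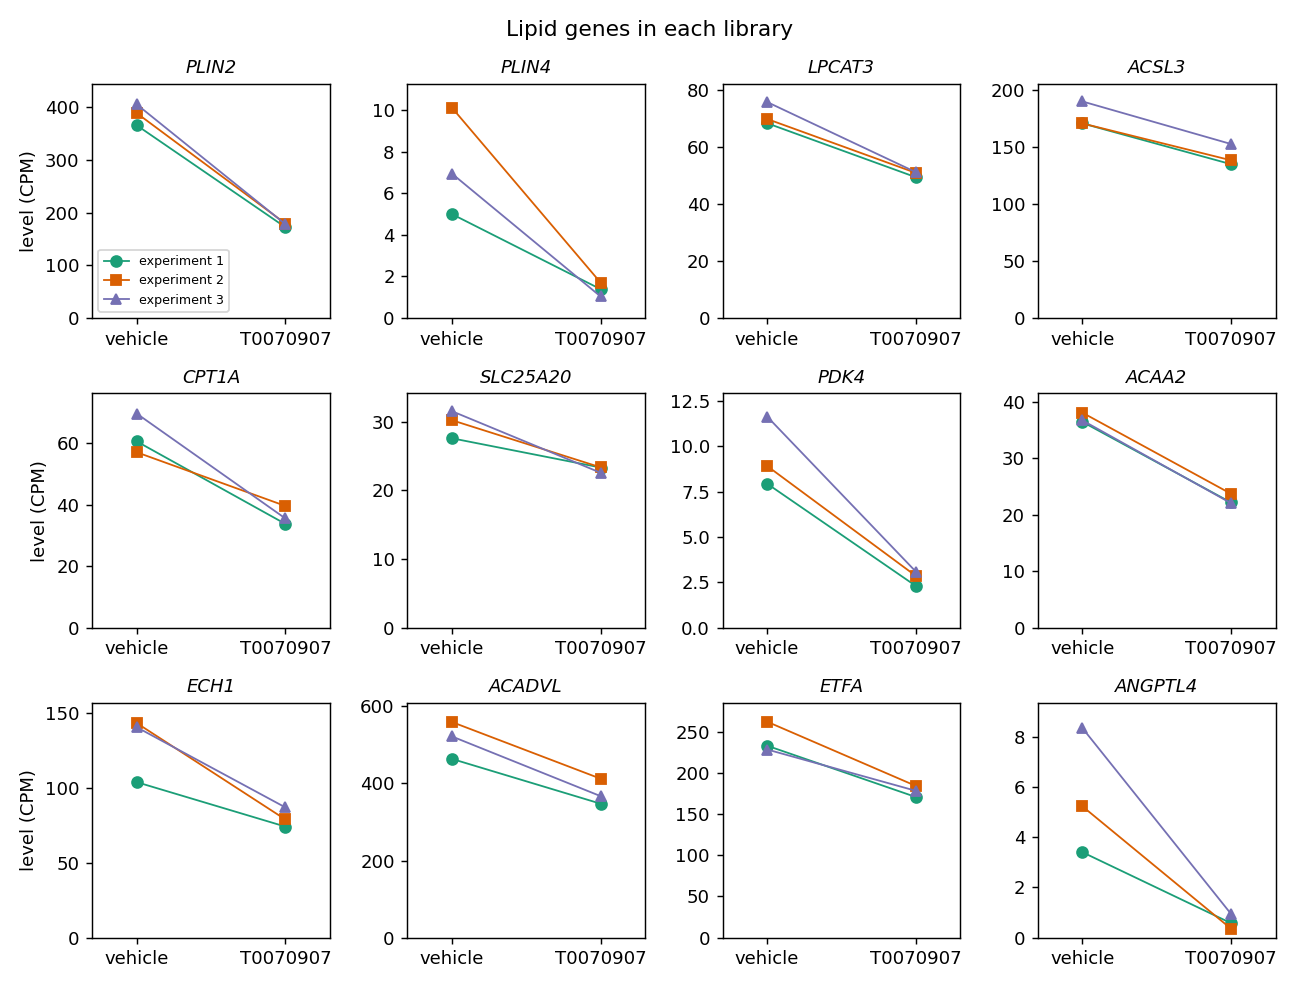
CPM of lipid genes and PPARγ readouts in each vehicle and T0070907 library, with a line joining the libraries of each experiment. The lines of *PLIN2*, *CPT1A* and *PDK4* slope down in experiments 1, 2 and 3, with T0070907 values of *PLIN2* between 172 and 179 CPM.

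Promoter sequences of 97 of the 123 called genes were at hand, from RefSeq on build GRCh38.p14, and were searched on both strands for the half-site AGGTCA and for the paired element AGGTCANAGGTCA, which contains it and to which PPARγ and RXR are known to bind. The paired element was in 0 of 120 promoters of lowered genes and 0 of 51 promoters of raised genes, against 0.0228% of all 35116 promoters, and a relaxed form, AGGNCANAGGNCA, was in 0 of both sets and in 0.31% of all. The half-site was in 11 of 120 promoters of lowered genes (9.17%) and in 6 of 51 of raised genes (11.8%), against 10.3% for the tested genes and 13.8% of all promoters, so neither set stood far from the background for the half-site. Of 6 further spellings, NGGNCANAGGNCA had the most matches, in 4 of 120 promoters of lowered genes (3.33%) and 2 of 51 of raised genes (3.92%), against 0.79% for the tested genes and 0.917% of all promoters; these are few promoters, and the form was singled out after its matches were seen. The windows hold 250 bases before and 50 after each start, and elements outside them were not searched. Shown are the bases before the start, outside annotated exons, of *PLIN2* (chr9:19127577-19127742, minus strand) and *CPT1A* (chr11:68844411-68844527, minus strand) as the lipid genes described above, and of *NR1H3* (chr11:47248134-47248299, plus strand) and *SERPINA3* (chr14:94612141-94612296, plus strand) as a lowered and a raised gene with a half-site. Capitals mark the half-site on either strand, and *PLIN2* and *CPT1A* have none. *NR1H3* has 4 promoters in this set, and the window shown was taken for its number of half-sites.
PLIN2: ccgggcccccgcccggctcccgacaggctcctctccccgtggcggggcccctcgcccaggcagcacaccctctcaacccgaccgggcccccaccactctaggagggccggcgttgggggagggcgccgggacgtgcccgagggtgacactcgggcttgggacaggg
CPT1A: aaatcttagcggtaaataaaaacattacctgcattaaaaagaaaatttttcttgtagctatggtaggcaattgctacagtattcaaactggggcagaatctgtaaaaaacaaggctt
NR1H3: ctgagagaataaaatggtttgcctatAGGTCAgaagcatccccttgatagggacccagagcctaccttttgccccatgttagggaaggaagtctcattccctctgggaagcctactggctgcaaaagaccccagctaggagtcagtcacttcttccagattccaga
SERPINA3: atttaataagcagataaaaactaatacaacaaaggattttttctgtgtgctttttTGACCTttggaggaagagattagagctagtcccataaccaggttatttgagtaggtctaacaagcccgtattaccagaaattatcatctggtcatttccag

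Some genes of fatty acid activation and some LXR targets were called as well. *ACSL3*, a long-chain acyl-CoA synthetase found on lipid droplets, had 171, 171 and 190.2 CPM with vehicle and 135, 138 and 153 CPM with T0070907. The groups were separate but close, and *ACSL3* fell by 0.32 (SE 0.06, adjusted p = 0.0194). It was 1 of 2 called genes among 17 tested genes of fatty acid uptake and activation, whose median was -0.15, and the other, the acetyl-CoA synthetase *ACSS2*, was higher. *NR1H3*, which encodes LXRα and whose upstream half-site is printed above, had 18.6, 38.3 and 21.8 CPM with vehicle and 14.7, 21.7 and 14 CPM with T0070907. Its groups overlapped because experiment 2 ran higher in both, while the value fell within each experiment, by 0.63 in the fit (SE 0.11, adjusted p = 0.00913). With *LPCAT3* it made up the 2 called genes of 12 tested LXR targets, whose median was -0.01. *KLF10*, a zinc finger factor on the PPAR target list, fell by 0.55 (adjusted p = 0.00265). Both *ACSL3* and *NR1H3* lost their calls without vehicle library 2 (adjusted p = 0.0877 and 0.1), T0070907 library 2 (0.0859 and 0.134), T0070907 library 3 (0.261 and 0.0759) or experiment 3 (0.355 and 0.26), *ACSL3* also without vehicle library 1 (0.178) or T0070907 library 1 (0.0534), and *NR1H3* without vehicle library 3 (0.0745) or experiment 2 (0.0815).

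*ANGPTL4*, *FABP4* and *TXNIP* differed in what they could show. Of these, *FABP4* served the study as a readout of PPARγ activity, and *TXNIP* is the gene it reports as PPARγ-regulated. *ANGPTL4*, a secreted inhibitor of lipoprotein lipase, had 3.41, 5.24 and 8.35 CPM with vehicle and 0.578, 0.358 and 0.948 CPM with T0070907. All 3 vehicle libraries were above all 3 T0070907 libraries, yet with a log2 fold change of -3.16 and a large error (SE 0.81) it did not pass the test (adjusted p = 0.083), though it did without experiment 1 (adjusted p = 0.0145) or experiment 3 (adjusted p = 0.0261), with DESeq2 and the block, with no filter on low counts, and in the fit of only the 6 compared libraries. *FABP4*, the adipocyte fatty acid binding protein, had 1, 1 and 1 counts with vehicle and 1, 3 and 0 counts with T0070907, at or under the floor in each library, so a decrease was not detectable at this depth and no fold change is given. *TXNIP*, an arrestin-like protein that binds thioredoxin, had 23.2, 21.9 and 15.8 CPM with vehicle and 26.9, 25.3 and 20.4 CPM with T0070907. Its values overlapped although each experiment gave a higher value with T0070907, and the log2 fold change of 0.26 (SE 0.09) was not called (adjusted p = 0.295).

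Among cytokines, the interleukin-1 genes stood out. *IL1B*, a proinflammatory cytokine, had 0.681, 9.52 and 0.706 CPM with vehicle, high in experiment 2 and near the floor otherwise, and 0, 0.985 and 0.0862 CPM with T0070907. The T0070907 values of experiments 1 and 3 were 0 and 1 counts, and most counts came from experiment 2, with 80 against 11. The fitted log2 fold change was -3.23 (SE 0.43, adjusted p = 0.000755), and the gene was not called without vehicle library 2 (adjusted p = 0.185) or experiment 2 (adjusted p = 0.104). The fitted value itself moved to -2.13 without vehicle library 2 and to -4.46 without T0070907 library 2, and was -3.51 without the whole of experiment 2. *IL1A*, which signals through the same receptor, had 1.93, 2.62 and 2.59 CPM with vehicle and 0.462, 1.07 and 0.948 CPM with T0070907. Here the groups did not overlap, and *IL1A* fell by 1.51 (SE 0.31, adjusted p = 0.0269), a call lost without any single one of the 6 libraries (adjusted p from 0.0752 without vehicle library 3 to 0.269 without T0070907 library 3). *IL1RL1*, the receptor for interleukin-33, also differed between experiments, with 24.3, 97.3 and 7.77 CPM with vehicle and 11.8, 26.4 and 2.07 CPM with T0070907. The groups overlapped, but the level dropped in each experiment, by 1.64 in the fit (SE 0.17, adjusted p = 0.000103). Of 19 tested NF-kB targets, cytokines and chemokines, *IL1A* and *IL1B* were the 2 called, and the list's median was -0.16.

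The lowest adjusted p in either direction belonged to *HR*, a nuclear corepressor named for the hairless phenotype of its mutants, with 119.9, 106 and 165 CPM with vehicle and 78.2, 64.5 and 97.0 CPM with T0070907. Its groups did not overlap, and it fell by 0.70 (SE 0.07, adjusted p = 8.77e-05). *TINAGL1*, a secreted matrix protein, had 266, 229 and 278 CPM with vehicle and 165, 137 and 155 CPM with T0070907, equally without overlap, and fell by 0.76 (SE 0.08, adjusted p = 0.000103). *TFF2* had 3.63, 5.00 and 4.71 CPM with vehicle and 0.693, 0.627 and 1.29 CPM with T0070907. It was called in 17 of 17 alternative settings, and the setting with at least 10 counts in every library did not test it. Counts were low, between 32 and 42 with vehicle and between 6 and 15 with T0070907, but the groups were far apart, and *TFF2* fell by 2.30 (SE 0.31, adjusted p = 0.000725). It was also the 1 called gene of 11 tested genes of the EGF family and trefoil list, whose median was 0.00.

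Further decreases of large size were found at low levels. *RORB*, a retinoid-related orphan receptor, had 3.29, 2.14 and 3.65 CPM with vehicle and 0.809, 0.716 and 1.12 CPM with T0070907. *PPP1R1B*, a phosphatase inhibitor known from dopamine signalling, had 1.48, 3.45 and 3.06 CPM and 0.693, 0.716 and 0.862 CPM, and the metalloproteinase *MMP19* had 4.88, 8.81 and 5.06 CPM and 1.39, 2.86 and 2.15 CPM. Vehicle and T0070907 values did not overlap for any of these 3 genes. They fell by 1.78 (*RORB*, SE 0.31, adjusted p = 0.00692), by 1.82 (*PPP1R1B*, SE 0.38, adjusted p = 0.0281) and by 1.53 (*MMP19*, SE 0.30, adjusted p = 0.0194). *LYPD3*, a membrane-anchored protein of keratinocytes and tumours, had 4.88, 13.3 and 8.24 CPM with vehicle and 3.12, 5.46 and 3.10 CPM with T0070907, which overlap across experiments, and fell by 1.18 (SE 0.19, adjusted p = 0.00326). Without T0070907 library 3 the adjusted p was 0.189 for *RORB*, 0.302 for *PPP1R1B*, 0.222 for *MMP19* and 0.0652 for *LYPD3*, so each lost its call. *RORB* also lost it without vehicle library 1 (adjusted p = 0.0633) and *LYPD3* without vehicle library 2 (0.0545), while *PPP1R1B* lost it without any single library but vehicle library 1 (from 0.0589 to 0.302) and *MMP19* without any but vehicle library 3 (from 0.0645 to 0.222). Each of these genes lost its call without experiment 3 as well (0.159 for *RORB*, 0.32 for *PPP1R1B*, 0.094 for *MMP19* and 0.118 for *LYPD3*), and *PPP1R1B* also without experiment 2 (0.0925).

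Of the 32 higher genes, the netrin receptor *UNC5C* had the largest increase, from 1.93, 1.43 and 3.65 CPM with vehicle to 6.70, 4.65 and 8.19 CPM with T0070907. The groups did not overlap, and *UNC5C* rose by 1.48 (SE 0.22, adjusted p = 0.00203). *BMX*, a cytoplasmic tyrosine kinase, had 1.70, 2.5 and 0.941 CPM with vehicle and 3.23, 4.48 and 3.88 CPM with T0070907, also apart, and rose by 1.19 (SE 0.25, adjusted p = 0.0281). These were the 2 called genes of 27 tested guidance and growth factor receptor genes, whose median was 0.03. *PLEKHS1*, a protein with a pleckstrin homology domain, had 4.43, 0.595 and 7.77 CPM with vehicle and 10.7, 3.22 and 13.5 CPM with T0070907. Its level differed more between experiments than between treatments, and its rise of 1.13 (SE 0.19, adjusted p = 0.00552) was seen within each experiment. *UNC5C* was not called without T0070907 library 3 (adjusted p = 0.0514), *PLEKHS1* not without vehicle library 1 (0.0871), T0070907 library 1 (0.0559) or T0070907 library 3 (0.0652), and *BMX* not without any single one of the 6 libraries (from 0.0523 to 0.283). Without experiment 3, *PLEKHS1* (0.118) and *BMX* (0.63) lost their calls too, and *BMX* lost it without experiment 1 (0.0577). *BMX* was also not called by DESeq2 or limma-voom with the block.

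*SERPINA3*, an acute phase inhibitor of neutrophil proteases and 1 of the 10 largest increases, had 49.2, 48.3 and 104 CPM with vehicle and 78.3, 64.8 and 213 CPM with T0070907. The groups overlapped because experiment 3 had the highest values of both, and *SERPINA3* rose by 0.74 (SE 0.11, adjusted p = 0.00164). *AFAP1L2*, an actin-associated adaptor, rose by 0.67 (SE 0.11, adjusted p = 0.00469), from 25.5, 12 and 36.0 CPM to 41.5, 21.8 and 51.2 CPM. *PDE4B*, a cAMP phosphodiesterase, rose by 0.77 (adjusted p = 0.0194), *TMEM229B* by 0.73 (adjusted p = 0.0278) and the GABA transaminase *ABAT* by 0.68 (adjusted p = 0.0448), each higher with T0070907 in 3 of 3 experiments and with overlapping groups. *LOXL4*, a lysyl oxidase that crosslinks matrix proteins, had 165, 207 and 247 CPM with vehicle and 216, 285 and 376 CPM with T0070907. Across experiments the groups overlapped, and within them *LOXL4* rose by 0.49 (SE 0.06), with the lowest adjusted p among higher genes (0.000196). *SERPINA3* was not called without T0070907 library 3 (adjusted p = 0.0524), *PDE4B* not without any single library but T0070907 library 1 (from 0.0639 to 0.222), and *TMEM229B* and *ABAT* not without any single one of the 6 (from 0.0715 to 0.35 and from 0.0846 to 0.296). DESeq2 with the block called none of *PDE4B*, *TMEM229B* and *ABAT*, and limma-voom did not call *ABAT*. *AFAP1L2* was not called without vehicle library 1 (adjusted p = 0.0633), and *SERPINA3* also not without vehicle library 3 (0.0582). Each gene of this paragraph lost its call without experiment 3. The adjusted p there was 0.118 for *LOXL4*, 0.368 for *SERPINA3*, 0.202 for *AFAP1L2*, 0.304 for *PDE4B* and *TMEM229B*, and 0.619 for *ABAT*. Without experiment 1, *TMEM229B* (0.103) and *ABAT* (0.0577) were not called, and without experiment 2, *PDE4B* (0.0933) and *ABAT* (0.18) were not.

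Outside lipid metabolism, the antioxidant list of NRF2 targets had the most called genes, 4 of 26 tested, with a median of 0.04. *ABCC3*, an efflux pump for organic anions, had 13.7, 30.2 and 16.5 CPM with vehicle and 7.97, 12.1 and 6.89 CPM with T0070907. Its groups were apart, and it fell by 1.17 (SE 0.14, adjusted p = 0.000244). The autophagy receptor *SQSTM1* fell by 0.38 (SE 0.07, adjusted p = 0.00667), from 525, 743 and 534 CPM to 441, 518 and 416 CPM without overlap, and *AKR1C2*, a steroid-metabolising reductase with near-identical paralogs whose counts are uncertain for that reason, fell by 0.75 (SE 0.17, adjusted p = 0.0448). *TXNRD1*, thioredoxin reductase, went the other way and is described with the genes not called for RGZ. The stress genes *HMOX1* (0.28, adjusted p = 0.325) and *NQO1* (0.22, adjusted p = 0.122), named as the best known members of the list after their values were seen, were not called. Without T0070907 library 2, T0070907 library 3, vehicle library 2 or vehicle library 3, 1 gene of the list was called. The count was 2 without vehicle library 1, T0070907 library 1 or experiment 1, 5 without experiment 2 and 0 without experiment 3. *AKR1C2* lost its call in each of the 9 leave-outs (adjusted p from 0.0514 to 0.257) and with limma-voom, and *SQSTM1* lost it without vehicle library 2 (0.0518), vehicle library 3 (0.0518), T0070907 library 2 (0.0926), T0070907 library 3 (0.0759) or experiment 3 (0.368). *ABCC3* kept its call without any single library and lost it without experiment 3 (adjusted p = 0.0918).

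Of 38 tested genes of adhesion, matrix and proteases, 3 were called, all lower, with a list median of -0.01. *ITGA2*, a collagen-binding integrin subunit, had 39.1, 40.0 and 34.5 CPM with vehicle and 23.5, 24.0 and 17.4 CPM with T0070907. These groups did not overlap, and *ITGA2* fell by 0.83 (SE 0.14, adjusted p = 0.00675). *ITGA3*, a laminin-binding subunit, fell by 0.43 (SE 0.07, adjusted p = 0.00248), from 351, 460.4 and 317 CPM to 272, 354 and 216 CPM. The metalloproteinase inhibitor *TIMP3* fell by 0.46 (SE 0.09, adjusted p = 0.011), from 939, 619 and 1168 CPM to 658, 503 and 788 CPM. In both of these the vehicle and T0070907 values overlapped across experiments, and each of the 3 experiments had the lower value with T0070907. Without T0070907 library 3 the adjusted p was 0.139 for *ITGA2* and 0.222 for *TIMP3*. *ITGA2* was also not called without vehicle library 1 (0.0749) or T0070907 library 2 (0.0746). *TIMP3* was not called without vehicle library 1 (0.0933), vehicle library 3 (0.0662) or T0070907 library 1 (0.0786). Without experiment 3, 0 genes of the list were called, with adjusted p of 0.401 for *ITGA2*, 0.531 for *TIMP3* and 0.159 for *ITGA3*.

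Lineage and growth signalling lists had 1 called gene each. *S100B*, a calcium-binding protein used as a melanoma marker, was the 1 called gene of 6 tested melanocyte lineage genes, with 23.4, 15.1 and 38.5 CPM with vehicle and 33.7, 19.2 and 65.3 CPM with T0070907. The groups overlapped, and *S100B* rose by 0.59 (SE 0.11, adjusted p = 0.0119), while the median of the list was 0.10. *PHLDA1*, whose transcript follows MAPK activity, fell by 0.41 (SE 0.06, adjusted p = 0.00248), from 409.6, 552 and 459 CPM to 304, 445 and 323 CPM, and was the 1 called gene of 20 tested MAPK output genes (median -0.05). *S100B* lost its call without vehicle library 1 (adjusted p = 0.091), vehicle library 3 (0.201) or T0070907 library 3 (0.298), and *PHLDA1* lost it without T0070907 library 3 (0.0525). Both also lost it without experiment 3 (0.63 for *S100B* and 0.268 for *PHLDA1*).

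In 12 of the 26 lists 0 genes were called by edgeR. They included sterol and fatty acid synthesis, driven by SREBP (34 tested, median 0.01), the cell cycle (31 tested, median 0.01), glycolysis and the hypoxia response (30 tested, median -0.01), ATF4 and endoplasmic reticulum stress (22 tested, median -0.05), p53 targets (20 tested, median 0.05), the interferon response (19 tested, median 0.07) and AHR targets (6 tested, median 0.15). At an unadjusted p under 0.05 the numbers of genes in these 7 lists were 5, 4, 6, 1, 3, 1 and 2 in that order, where 1328 of all 13522 tested genes (9.82%) are under it, and DESeq2 and limma-voom with the block also called 0 genes in any of the 12 lists. The keratinocyte, fibroblast, immune cell, endothelial and adipocyte markers made up the other 5 lists, with 1 of 3, 2 of 5, 1 of 3, 0 of 2 and 0 of 1 tested genes at an unadjusted p under 0.05 and medians of -0.03, 0.34, -0.15, 0.03 and -0.05. The fibroblast median was the largest of the 26 lists, with 0 of the 5 genes below 0. Together the lists held 444 of the tested genes (3.28%) and 29 of the 123 called genes (23.6%), a share from which nothing is read, since the lists were drawn up with earlier results of these data known. The 11 tested alpha-arrestins and MondoA sensors had 1 called gene, *TXNRD1*, which the list shares with the NRF2 targets, and a median of 0.07.

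**Figure D3:**
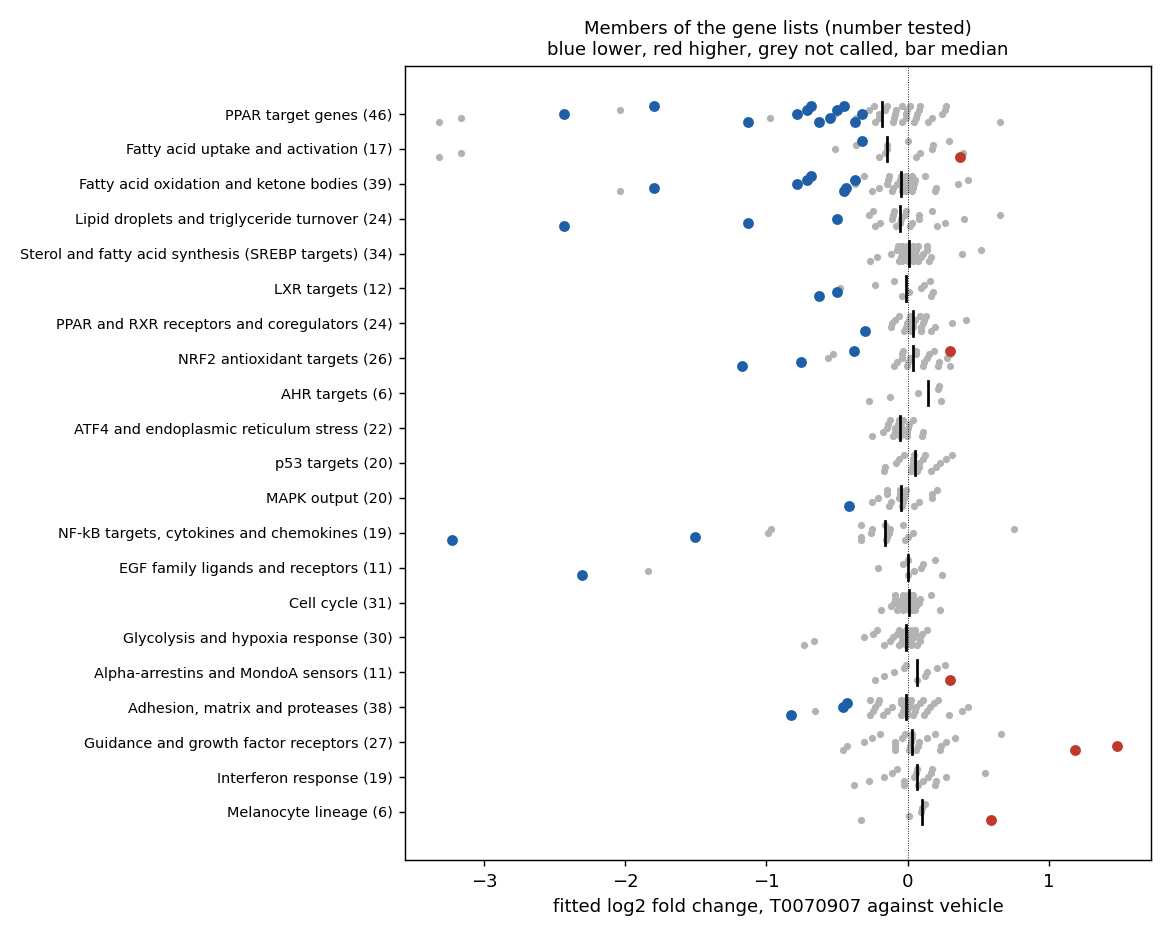
Log2 fold change of T0070907 against vehicle for the tested genes of each list, with called genes in colour and the median of the list as a bar. The 12 called PPAR target genes lie on the left of 0, and most lists have their median within 0.1 of it.

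RGZ against vehicle, a comparison that uses the same 3 vehicle libraries, called 1258 genes (9.3%). Because of the shared libraries the values of both comparisons are only set side by side: the 91 lowered genes had a median log2 fold change of -0.51 with T0070907 and of 0.73 with RGZ, and the 32 raised genes one of 0.58 with T0070907 and of -0.76 with RGZ. For *PLIN2* the pair of values was -1.13 and 2.62, for *CPT1A* -0.78 and 0.78, for *PDK4* -1.79 and 2.73, for *IL1A* -1.51 and 2.33, and for *UNC5C* 1.48 and -2.83. *RORB* and *PPP1R1B* were among the genes for which the value with RGZ was the smaller in size, with -1.78 and 0.91 for *RORB* and -1.82 and 1.09 for *PPP1R1B*. The direct test of RGZ against T0070907, which needs no vehicle library, called 2898 genes (21.4%), or 1894 without T0070907 library 2 and 1245 without experiment 3. Without the block these comparisons called 167 and 797 genes.

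Of the 123 genes called for T0070907, 8 were not called for RGZ: *COL13A1*, *PAWR* and *STC2* were lower and *TXNRD1*, *ACSS2*, *CHST2*, *PTPRO* and *CD200* higher with T0070907. For 5 of the 8 the unadjusted p of the RGZ comparison was 0.05 or more as well, with 0.156 for *COL13A1*, 0.51 for *PAWR*, 0.219 for *ACSS2*, 0.197 for *CHST2* and 0.103 for *CD200*. A p that misses the threshold does not show that RGZ left these genes where they were. The direct test of RGZ against T0070907 called these 8 as it called all 123, and because it reuses the T0070907 libraries on which they were chosen, nothing particular to the 8 is read from it.

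*COL13A1*, a transmembrane collagen, had 38.2, 66.5 and 34.4 CPM with vehicle and 28.8, 49.5 and 22.7 CPM with T0070907. The groups overlapped, with a lower value under T0070907 in each experiment, and *COL13A1* fell by 0.47 (SE 0.10, adjusted p = 0.0313), against a fitted value 0.14 (SE 0.10) above vehicle with RGZ. *PAWR*, a pro-apoptotic partner of the WT1 protein, had 57.1, 52.6 and 36.1 CPM with vehicle and 43.6, 41.3 and 29.3 CPM with T0070907, which overlapped too, and fell by 0.35 (SE 0.08, adjusted p = 0.0325), against a fitted value 0.05 (SE 0.08) above vehicle with RGZ. The secreted glycoprotein *STC2* fell by 0.34 (SE 0.08, adjusted p = 0.0448), from 52.7, 68.5 and 38.8 CPM to 41.7, 58.7 and 27.6 CPM, against a fitted value 0.20 (SE 0.08) above vehicle with RGZ. *TXNRD1*, which keeps thioredoxin reduced, had 533, 549 and 475 CPM with vehicle and 677, 703 and 546 CPM with T0070907. Each experiment had the higher value with T0070907, the groups overlapped by a narrow margin, and *TXNRD1* rose by 0.30 (SE 0.07, adjusted p = 0.0448), against a log2 fold change of -0.15 (SE 0.07) with RGZ. Without T0070907 library 3 the adjusted p was 0.304 for *COL13A1*, 0.274 for *PAWR*, 0.35 for *STC2* and 0.187 for *TXNRD1*.

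*ACSS2*, which makes acetyl-CoA from acetate in the cytosol and nucleus, had 18.6, 32.0 and 27.8 CPM with vehicle and 26.7, 36.3 and 38.1 CPM with T0070907. With overlapping groups it rose by 0.37 (SE 0.08, adjusted p = 0.0441), against a log2 fold change of -0.11 (SE 0.09) with RGZ. *CHST2*, a sulfotransferase of glycan chains, had 7.95, 5.00 and 12.7 CPM with vehicle and 12.9, 7.61 and 17.7 CPM with T0070907, and rose by 0.58 (SE 0.12, adjusted p = 0.0267). It was the 1 gene of the 8 whose value with RGZ, 0.17 (SE 0.13), had the same sign as with T0070907. *PTPRO*, a receptor tyrosine phosphatase, had 1.14, 2.38 and 1.18 CPM with vehicle and 2.66, 5.46 and 1.98 CPM with T0070907, and *CD200*, a membrane glycoprotein that restrains myeloid cells, had 0.908, 0.714 and 1.06 CPM and 2.31, 1.07 and 3.10 CPM. The *CD200* groups were separated by a small margin and those of *PTPRO* overlapped. *PTPRO* rose by 1.10 (SE 0.25, adjusted p = 0.0448) and *CD200* by 1.26 (SE 0.29, adjusted p = 0.049), against -0.78 and -0.76 with RGZ, where the errors were large (SE 0.34 and 0.40). Leaving out T0070907 library 3 gave an adjusted p of 0.314 for *ACSS2*, 0.222 for *CHST2*, 0.231 for *PTPRO* and 0.39 for *CD200*.

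The calls of these 8 genes had adjusted p between 0.0267 and 0.049. The number of genes called for T0070907 and not for RGZ was 2 without vehicle library 1, 3 without vehicle library 2, 3 without vehicle library 3, 1 without T0070907 library 1, 2 without T0070907 library 2, 0 without T0070907 library 3, 8 without experiment 1 (1 of them among the 8 named), 24 without experiment 2 and 0 without experiment 3. The fits of only the compared groups did not include RGZ against vehicle, so they give no such number. *PAWR*, *CHST2*, *PTPRO* and *CD200* were called in none of the settings that leave out a library or experiment, *TXNRD1* in 1 of 9, *STC2* and *ACSS2* each in 2 of 9 and *COL13A1* in 3 of 9. With DESeq2 and the block 6 genes were called for T0070907 and not for RGZ, 2 of them among the 8, and *PAWR*, *STC2*, *ACSS2*, *CHST2*, *PTPRO* and *CD200* were not called for T0070907. With limma-voom *ACSS2*, *PTPRO* and *CD200* were not.

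**Figure D4:**
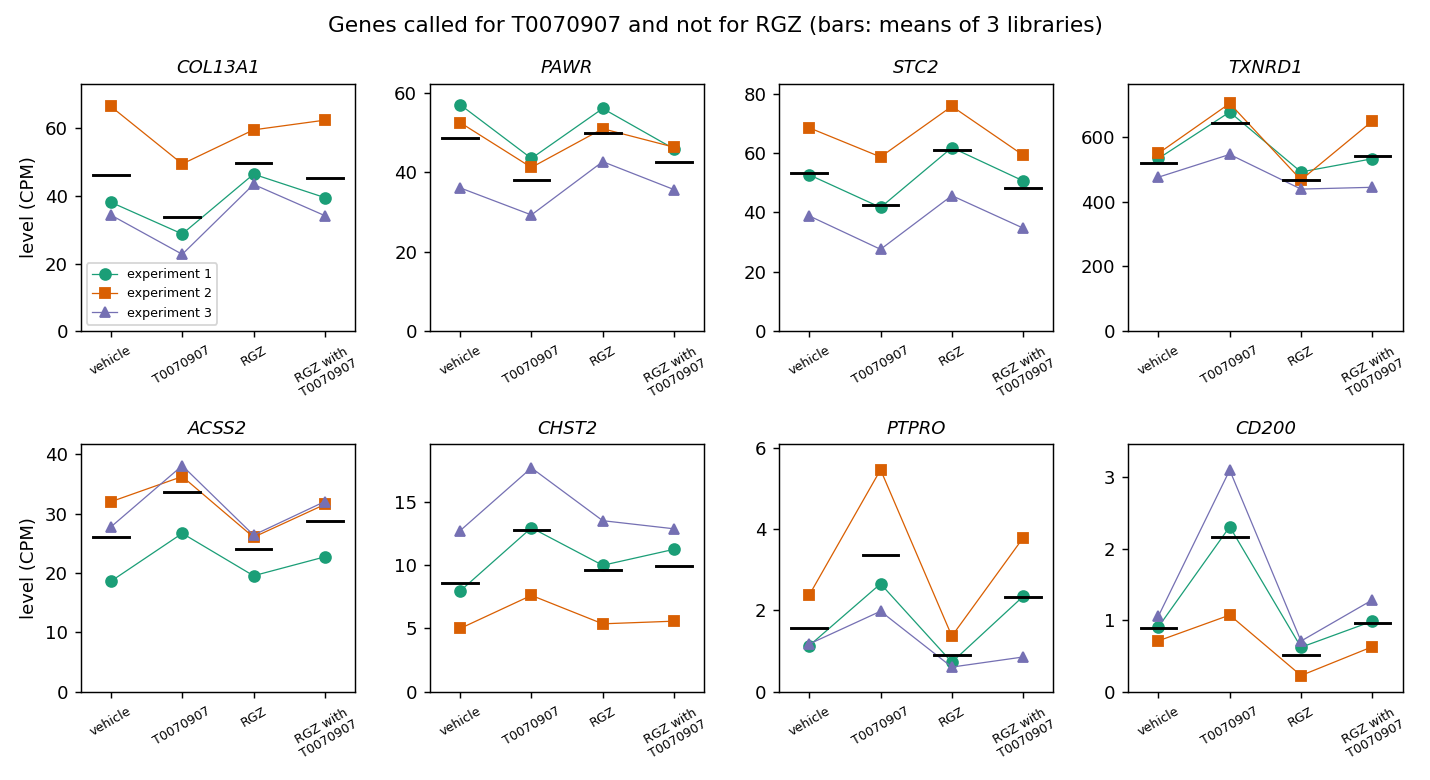
CPM of the 8 genes called for T0070907 and not for RGZ in the libraries of all 4 groups, with a line joining each experiment. *TXNRD1* lies between 475 and 549 CPM with vehicle and between 546 and 703 CPM with T0070907.

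The same antagonist was also tested on top of RGZ, in 6 libraries outside the comparison with vehicle. These libraries come from the same 3 experiments and entered the same fit, so the comparisons are not fully independent. T0070907 with RGZ against RGZ alone called 1545 genes (11.4%, or 167 without the block, 949 without experiment 1 and 513 without experiment 3), and 115 of the 123 genes called without agonist were among them, in the same direction, which is 93.5% of the 123 and 7.44% of the 1545. All 123 had the same sign in both. Of the lowered genes 87 of 91 and of the raised genes 28 of 32 were called again, with median log2 fold changes of -0.67 and 0.74 in the presence of RGZ. When RGZ was present the log2 fold change with the antagonist was -2.06 for *TFF2*, -2.24 for *IL1RL1* and -0.90 for *CPT1A*, against -2.30, -1.64 and -0.78 without agonist. Among the genes not called for RGZ, *STC2* and *PTPRO* were called in this comparison as well. Their log2 fold changes were -0.35 (adjusted p = 0.00539) and 1.33 (adjusted p = 0.008). *CHST2* had 0.04 (adjusted p = 0.9), and the test of the difference described below did not call it (-0.54, SE 0.17, adjusted p = 0.273). The adjusted p was 0.0604 for *PAWR*, 0.0641 for *TXNRD1*, 0.0652 for *ACSS2*, 0.2 for *CD200* and 0.302 for *COL13A1*.

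The difference between the effect of T0070907 with RGZ and without it was tested for each gene and called for 38 genes (0.281%), 7 of them among the 123. *PLIN2* fell by 1.13 without and by 2.23 with RGZ, a difference of -1.10 (SE 0.18, adjusted p = 0.0301). *LOXL4* rose by 0.49 without and by 1.24 with RGZ, a difference of 0.75 (SE 0.08, adjusted p = 0.000594). Called genes whose difference did not pass the test included *CPT1A* (difference -0.12, SE 0.12) and *ACADVL* (difference 0.00, SE 0.08). Without the block 0 genes were called for this difference by edgeR, and 406 had an unadjusted p under 0.05, while DESeq2 with the block called 47 and limma-voom 21. The count was 10 without vehicle library 1, 1 without vehicle library 2, vehicle library 3 or T0070907 library 1, 6 without T0070907 library 2, 22 without T0070907 library 3, and 23, 15 and 1 without experiments 1, 2 and 3.

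**Figure D5:**
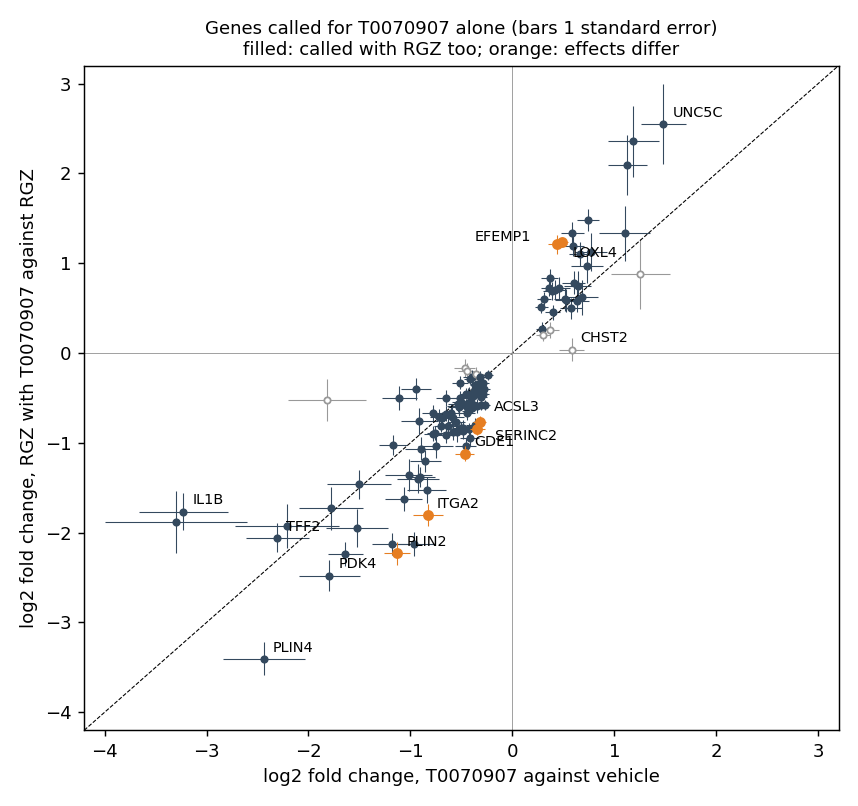
Log2 fold change of RGZ with T0070907 against RGZ alone (vertical axis) against that of T0070907 against vehicle (horizontal axis) for the 123 called genes, with bars of 1 standard error and a dashed line of equal change. Filled points mark the 115 genes called in both, and orange points the 7 genes whose effects differed by the test.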

How the data were processed

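RNA from A375 cells was prepared with a TruSeq RNA kit and sequenced by the authors, who deposited raw counts per gene (NCBI gene numbers) for 12 libraries. Build hg19 is named in the submitters' processing notes. The aligner, counter, annotation and strand setting are not given in the sources used here. Gene numbers were matched to symbols for 23538 of 23705 genes with a RefSeq table of GRCh38.p14, used for names and promoters only.

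Genes were filtered with filterByExpr (13522 tested), scaled by TMM and fitted in all 12 libraries with edgeR 4.0.16 (R 4.3.3) quasi-likelihood tests, with experiment as a block. P-values were adjusted by Benjamini-Hochberg over all tested genes and called under 0.05. Experiment numbers pair the libraries by design, each being an independent experiment run for all treatments, and the deviations of vehicle and T0070907 libraries from their group means correlated across genes at 0.399, 0.758 and 0.697 in experiments 1, 2 and 3. Standard errors are approximate, the log2 fold change divided by the root of the F statistic. CPM values use TMM-scaled library sizes, and the floor was 3 counts. The tests were checked on simulated counts. The block takes out shifts that an experiment gives to all of its treatments. Adjusted p-values cover the spread left after that, and floors cover counting error only. Replicates differed by more than sampling noise (chi-square per gene between 5.01 and 14).

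Named by rule were the 10 largest increases and decreases among called genes. These had a mean of 1 CPM or more and the same direction in each experiment. The rule added the 5 lowest adjusted p in each direction, called genes not called for RGZ and up to 6 called members of each list. It also took the receptor genes, genes set as readouts and the study's reference genes. Members and lists were chosen with earlier results of these data known. Of the 57 named genes, 14 overlap another gene of the table, and their reads cannot be told apart without strand. Of the 9 motif spellings searched, the 3 forms of the element and the spelling with the most matches among the other 6 are given; the promoters printed were chosen after values and matches were seen. Alternatives were DESeq2 1.42.0, limma-voom (limma 3.58.1), DESeq2 size factors, other filters, no block, only the compared groups, a stricter threshold, thinned counts, and each library or experiment left out.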

Additional observations from a re-analysis of the deposited data

Results flagged for a closer look

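The effect of T0070907 differed between cells with and without RGZ for 7 of the 123 genes called without agonist, by a test of the difference itself in edgeR with experiment as a block. Differences are the log2 fold change with RGZ minus that without it, 3 libraries in each of 4 groups. *PLIN2*, a lipid droplet coat protein, differed by -1.10 (adjusted p = 0.0301), and *ACSL3*, an acyl-CoA synthetase, by -0.44 (adjusted p = 0.0452). The integrin subunit *ITGA2* differed by -0.97 (adjusted p = 0.0452), *GDE1*, a glycerophosphodiester phosphodiesterase, by -0.65 (adjusted p = 0.0447) and *SERINC2*, a multipass membrane protein, by -0.50 (adjusted p = 0.0473). These 5 genes were lower with T0070907 in both settings and fell further when RGZ was present. The lysyl oxidase *LOXL4* differed by 0.75 (adjusted p = 0.000594) and the matrix protein *EFEMP1* by 0.77 (adjusted p = 0.0374), both higher with T0070907 in both settings and more so with RGZ. *GDE1*, *SERINC2* and *EFEMP1* lie outside the rule for named genes and are given because their difference passed the test. Single libraries far from their group were not looked for, since each group has 3. Of the 9 settings that leave out a library or experiment, the difference was called in 8 for *LOXL4*, 5 for *PLIN2*, 3 for *ITGA2*, 2 for *GDE1*, 1 for *EFEMP1* and 0 for *ACSL3* and *SERINC2*, and without the block 0 genes were called for it. With the block, limma-voom did not call it for *ACSL3*, *ITGA2*, *GDE1* and *SERINC2*, nor DESeq2 for *ITGA2*. What accounts for these differences was not tested.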

How the results depend on the processing

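The calls rest on the experiment block. Without the block 1 gene was called for T0070907 against vehicle, 0 of the genes not called for RGZ, 167 for T0070907 on top of RGZ, 797 for RGZ against T0070907 and 0 for the difference of the T0070907 effect, against 123, 8, 1545, 2898 and 38 with it. With DESeq2 and the block the first count was 112 (100 of them among the 123, with 37 of the 47 named called genes still called), with limma-voom 109 (107 and 41), with DESeq2 size factors 125 and with counts thinned to the smallest total 106, and 105 of those 106 genes were among the 123. With no filter on low counts it was 224, with the libraries of only the 2 compared groups 416 (120 of them among the 123) and at an adjusted p under 0.01 it was 56. Leaving out libraries or experiments gave between 10 and 127.

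The count of genes not called for RGZ was 6 with DESeq2 and the block (2 of them among the 8), 5 with limma-voom and 36 without the filter. It was 4 with at least 10 counts in every library, 3 at the stricter threshold and 3 with thinned counts. In the leave-outs it lay between 0 and 24. The 22 held 0 of the 8 named genes, and so did the 3 at the stricter threshold. T0070907 on top of RGZ called 822 genes from only the compared groups, 776 at the stricter threshold and between 513 and 2226 in the leave-outs. RGZ against T0070907 called 1764 at the stricter threshold and between 1245 and 2976 in the leave-outs. The difference of the effect was called for 21 genes with limma-voom, 150 without the filter, 1 at the stricter threshold and between 1 and 23 in the leave-outs. The stricter threshold lowers the counts of called genes by construction. The count of genes not called for RGZ is not bound in this way, since the threshold applies to both comparisons. What caused the other shifts was not tested.

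The fitted log2 fold change of *PPARG*, near 0 throughout, lay between -0.040 and 0.023 in the leave-outs and changed sign in 5 of them, to 0.012, 0.023, 0.0012, 0.0099 and 0.013. No other gene named by rule with a fitted fold change given here changed direction in any setting run for it. Genes near the floor, such as *FABP4* and *IL1B*, are limited by depth.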

Other observations

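Several called genes belong to families for which no list had been set, and they were picked after their values were seen. Of all 13522 tested genes 0.91% were called, and nothing is read from the family counts beside that share. Of 14 tested Krüppel-like transcription factors 4 were called (family median -0.09): *KLF4* fell by 0.90, *KLF10* by 0.55 and *KLF5* by 0.40 with T0070907 on the log2 scale, while *KLF9*, a target of the glucocorticoid receptor, rose by 0.37. Of 13 tested keratins 3 were called (median -0.01): *KRT7*, *KRT81* and *KRT80* fell by 0.78, 0.44 and 0.34, while *KRT14* had the opposite sign, with 0.42, and was not called (adjusted p = 0.142). Of 26 tested collagens 3 were called (median 0.19): the fibrillar and associated collagens *COL5A1* and *COL16A1* rose by 0.42 and 0.31, in contrast to the transmembrane collagen *COL13A1*, with -0.47. *GPNMB*, a melanosomal glycoprotein, rose by 0.39.

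Membrane proteins among the called genes included the efflux pump *ABCG2*, which fell by 0.89, the tumour necrosis factor receptor *TNFRSF1B*, which fell by 0.84, and the endotoxin receptor *TLR4*, which fell by 0.55. The hedgehog receptor *PTCH1* rose by 0.58 and the leukaemia inhibitory factor receptor *LIFR* by 0.52. Other called genes with lower values, given as examples, were the protease inhibitor *SERPINE2* (-0.43), the actin-binding protein *COTL1* (-0.43) and the phospholipid-binding protein *ANXA1* (-0.36). All of these but *KRT14* had an adjusted p under 0.05 in edgeR with the block, and none was called without it. Low counts kept *OLAH* and *FYB1*, with a mean under 1 CPM, from being described in the report, although both were called.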
